A study of Mus musculus with 6 samples.

Results

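The ADAMTS genes described here encode secreted zinc metalloproteases that cut proteins of the extracellular matrix. The group holds *Adamts1*, *Adamts2*, *Adamts4*, *Adamts5*, *Adamts6*, *Adamts9*, *Adamts12*, *Adamts15* and *Adamts17*, which were taken by gene name from the count table, 9 of its 54532 genes. A filter on low counts kept 8 of them for testing, and *Adamts15* did not pass it. The RNA-seq compared 2 cell populations sorted by FACS from *Gli1-CreERT2; tdTomato* mice (C57BL/6 background) at 1 month of age, harvested 1 day after tamoxifen (TAM). Gli1+ cells were CD45-, CD31-, Ter119- and tdTomato+, and Gli1- cells carried the same 3 negative markers but no tdTomato. Both populations came from the same mice, so the Gli1- cells carried the same alleles and had received TAM too. The paper's account of the RNA-seq names costal cartilage as the source, while the labels name the growth plate. There were 3 libraries of each population, numbered 1 to 3.

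The tdTomato label is switched on in cells that express CreERT2 from the *Gli1* locus at the time of TAM, and it stays in their descendants. *Gli1*, a transcription factor and target of Hedgehog signalling, was at 4.55, 6.39 and 7.98 CPM (TMM-scaled counts divided by library size in units of 1e6) in Gli1+ replicates 1, 2 and 3, and at 0.724, 1.26 and 2.43 CPM in Gli1- replicates 1, 2 and 3. Every Gli1+ library was thus above every Gli1- library for the gene that drives the label.

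Aggrecan is the large proteoglycan that gives cartilage its swelling pressure, and its core protein is cut by the aggrecanases of this family. *Adamts4* and *Adamts5* encode the classical aggrecanases, and *Adamts1*, *Adamts9* and *Adamts15* encode relatives that cut aggrecan or versican. *Adamts2* encodes a procollagen N-proteinase, which removes the amino-terminal propeptide of fibrillar procollagens before fibrils form. *Adamts12* encodes a protease that cuts COMP, a cartilage matrix protein, while *Adamts6* and *Adamts17* belong to branches that are linked to fibrillin microfibrils. RNA levels say nothing of how much active enzyme is present, since these proteases are made as inactive precursors and are held back by TIMP inhibitors.

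All 9 members share a stretch of coding sequence in which 3 histidine codons hold the catalytic zinc ion. It is shown because it shows how close the members are to each other, which bears on whether their reads can be told apart. The 33 bases are given 5′ to 3′ on the coding strand, from GENCODE M21 transcripts (GRCm38), with the 3 histidine codons in capitals.
Adamts1: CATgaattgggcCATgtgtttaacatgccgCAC
Adamts4: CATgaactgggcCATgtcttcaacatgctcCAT
Adamts5: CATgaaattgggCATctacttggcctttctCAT
Adamts9: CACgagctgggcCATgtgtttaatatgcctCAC
Adamts15: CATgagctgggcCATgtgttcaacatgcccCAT
Adamts2: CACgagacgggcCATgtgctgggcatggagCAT
Adamts6: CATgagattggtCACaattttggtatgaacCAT
Adamts12: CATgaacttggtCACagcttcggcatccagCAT
Adamts17: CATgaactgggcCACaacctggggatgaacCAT
Of the 33 bases, 12 were identical in all 9 members. Pairs among *Adamts1*, *Adamts4*, *Adamts9* and *Adamts15* shared 25 to 30 bases, and a pair of 1 of these 4 with any other member shared 17 to 23. *Adamts5* shared 18 to 20 bases with the other 8, and 19 of them with *Adamts4*, its fellow aggrecanase. In every member the stretch crossed an exon junction. The junction fell after base 10 in *Adamts1*, *Adamts4*, *Adamts5* and *Adamts15*, and after base 17 in *Adamts2*, *Adamts6*, *Adamts9*, *Adamts12* and *Adamts17*. Over the whole transcripts, 10 of 171 pairs of ADAMTS protease genes shared any run of 31 bases. A pair shared at most 16 such runs, where each run is counted on both strands, so that exact matches to several of these genes were short.

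On the mm10 build, *Adamts1* (ENSMUSG00000022893, chr16:85793827-85803113, minus strand) and *Adamts5* (ENSMUSG00000022894, chr16:85856173-85901828, minus strand) are neighbours, 53059 bases apart. *Adamts4* (ENSMUSG00000006403) lies at chr1:171250421-171260637 on the plus strand, *Adamts9* (ENSMUSG00000030022) at chr6:92772699-92943492 on the minus strand and *Adamts15* (ENSMUSG00000033453) at chr9:30899155-30922452 on the minus strand. *Adamts2* (ENSMUSG00000036545) lies at chr11:50602084-50807573, *Adamts6* (ENSMUSG00000046169) at chr13:104287835-104496695, *Adamts12* (ENSMUSG00000047497) at chr15:11064790-11349231 and *Adamts17* (ENSMUSG00000058145) at chr7:66839735-67153171, all on the plus strand. The members' coordinates were the same in the count table and in GENCODE M21 for 9 of 9 genes. Exons of *Adamts9* share 1381 bases with those of *A730049H05Rik* on the opposite strand. The use of strand in counting is not given in the sources used here, so counts of *Adamts9* could hold reads of that gene, which had 0 to 16 counts per library.

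The libraries held 17114101 to 18602482 counts each. Some stood apart from the rest. Gli1+ replicate 1 had 15000 genes with at least 1 count, against 20666 to 23360 in the other 5 libraries. Gli1- replicate 1 had a summed level of 10 neutrophil markers of 3462.2 CPM, against 9.66 to 78.4 CPM in the other 5, although the sort had removed CD45+ cells. The 14 chondrocyte markers summed to 8798.9 to 26650.5 CPM in Gli1+ and 7093.3 to 32401.5 CPM in Gli1- libraries, so both populations held the labelled cell type. Summed levels of 8 endothelial markers were 3.38 to 5.62 CPM in Gli1+ and 5.82 to 21.9 CPM in Gli1- libraries, those of 8 erythroid markers 0.0 to 4.97 and 1.11 to 19.3 CPM, and those of 10 skeletal muscle markers 11.3 to 41.7 and 14.5 to 36.7 CPM. The 10 macrophage markers summed to 70.6 to 338.3 CPM in Gli1+ and 343.5 to 1063.8 CPM in Gli1- libraries, and 12 dissociation stress genes to 1293.0 to 7767.3 and 6364.1 to 13147.4 CPM.

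Which of the 9 ADAMTS proteases did these cartilage cells express? Divided by gene length, *Adamts1* was the highest of the 9 in every library, at 29.4 CPM per kb as the mean of 6 libraries. *Adamts5* followed at 8.12 and *Adamts4* at 4.80 CPM per kb, then *Adamts2* at 1.35 and *Adamts9* at 0.571 CPM per kb. *Adamts6* (0.250), *Adamts17* (0.219) and *Adamts12* (0.213 CPM per kb) were close together, and *Adamts15* was lowest at 0.0443 CPM per kb. Among the 9 members, both populations were therefore led by *Adamts1*. It took 63.1 to 68.5% of their summed level per kb in Gli1+ libraries and 57.7 to 69.9% in Gli1- libraries. This order is that of the mean over both populations, and it differed between them in places. In Gli1- cells *Adamts5* and *Adamts4* were level (5.30 ± 1.94 and 5.29 ± 0.788 CPM per kb), and in Gli1+ cells *Adamts9* (0.745 ± 0.538 CPM per kb) was above *Adamts2* (0.631 ± 0.465 CPM per kb; SD, n = 3 each). *Adamts4* ranged from 2.75 to 6.08 CPM per kb and *Adamts5* from 3.16 to 13.5, and in Gli1- replicate 1 *Adamts4* (6.07 CPM per kb) was above *Adamts5* (3.16 CPM per kb). The lower ranks moved more. *Adamts9* was ranked between 4 and 8, *Adamts2* between 4 and 7, *Adamts6* between 5 and 8, *Adamts12* between 6 and 8 and *Adamts17* between 5 and 9, where its count of 0 put it below *Adamts15* in Gli1+ replicate 1. These ranks leave out ADAMTS proteases that are not among the 9. Of those, *Adamts10* (6.02 CPM per kb as the mean of 6 libraries) was above *Adamts4*, and *Adamts3* (3.35 CPM per kb) was above *Adamts2*. In Gli1- cells *Adamts10* was at 9.18 ± 3.5 and *Adamts3* at 5.37 ± 2.0 CPM per kb (SD, n = 3 each).

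**Figure D1:**
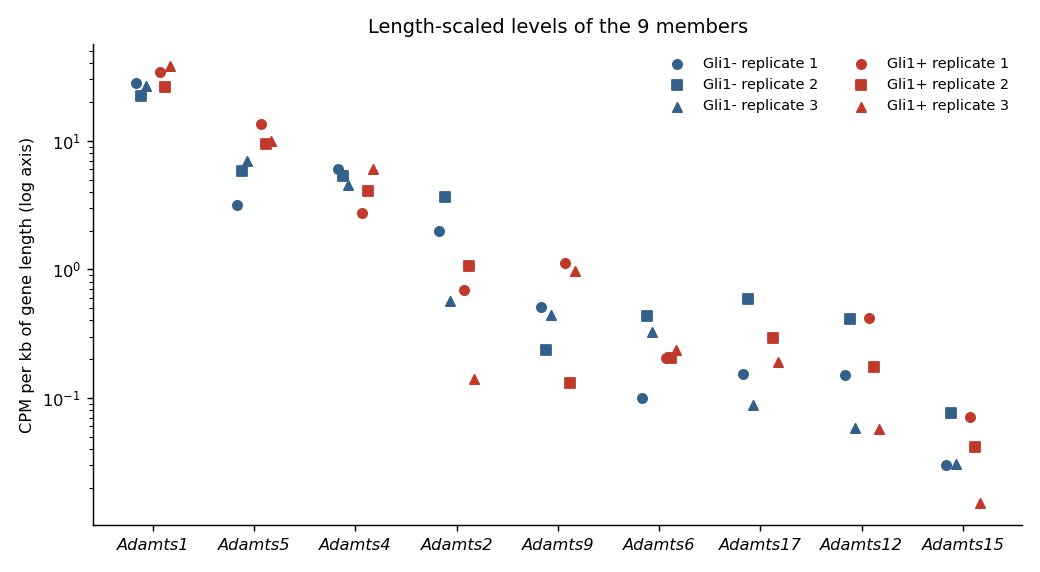
Level of each of the 9 ADAMTS members in each of the 6 libraries, in CPM per kb of gene length on a log axis. Each point is 1 library, coloured by population; the value of *Adamts17* in Gli1+ replicate 1 is 0 and is not drawn. *Adamts1* lies at the top in both populations, at 22.5 to 38.3 CPM per kb.

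Summed over the 9 members, the level was 53.1, 41.8 and 55.9 CPM per kb in Gli1+ replicates 1, 2 and 3 and 40.3, 39.0 and 39.8 CPM per kb in Gli1- replicates 1, 2 and 3. The means were 50.3 ± 7.45 and 39.7 ± 0.65 CPM per kb (SD, n = 3 each). All 3 Gli1+ sums were above the Gli1- sums, with Gli1+ replicate 2 only a little above them.

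Did the 2 populations differ in these genes? No member passed the study's threshold (an adjusted p-value under 0.05 with |log2FC| over 1) in edgeR's quasi-likelihood test without a replicate block, as was the case for all 14801 genes tested (0.0% called). The smallest adjusted p-value of that test over all genes was 0.9999. At an unadjusted p-value under 0.05, 1 of the 8 tested members differed by edgeR without the block. This was *Adamts5*, against 3.47% of all genes tested (1.43% with a higher and 2.04% with a lower level in Gli1+ cells). With the replicate number as a block, edgeR gave 2 of the 8 at that level, *Adamts5* higher and *Adamts2* lower, against 8.61% of all genes, 3.36% higher and 5.25% lower. DESeq2 with the same block, which compares the populations within each number, called 1 of the 8, *Adamts2*, against 3.27% of the 13079 genes with an adjusted p-value. Of the 8 members, 4 had a log2FC (Gli1+ over Gli1-) above 0 and 4 below, with a median of -0.11, beside 50.1% above 0 and a median of 0.001 for all genes. In 3 of the 8 the difference had the same sign in all 3 pairs, against 37.4% of all genes tested. These were *Adamts1* and *Adamts5*, higher in Gli1+ cells (17.6% of all genes), and *Adamts2*, lower (19.8% of all genes). These cells were measured in bulk, where fewer cells of a type and less RNA per cell cannot be told apart.

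**Figure D2:**
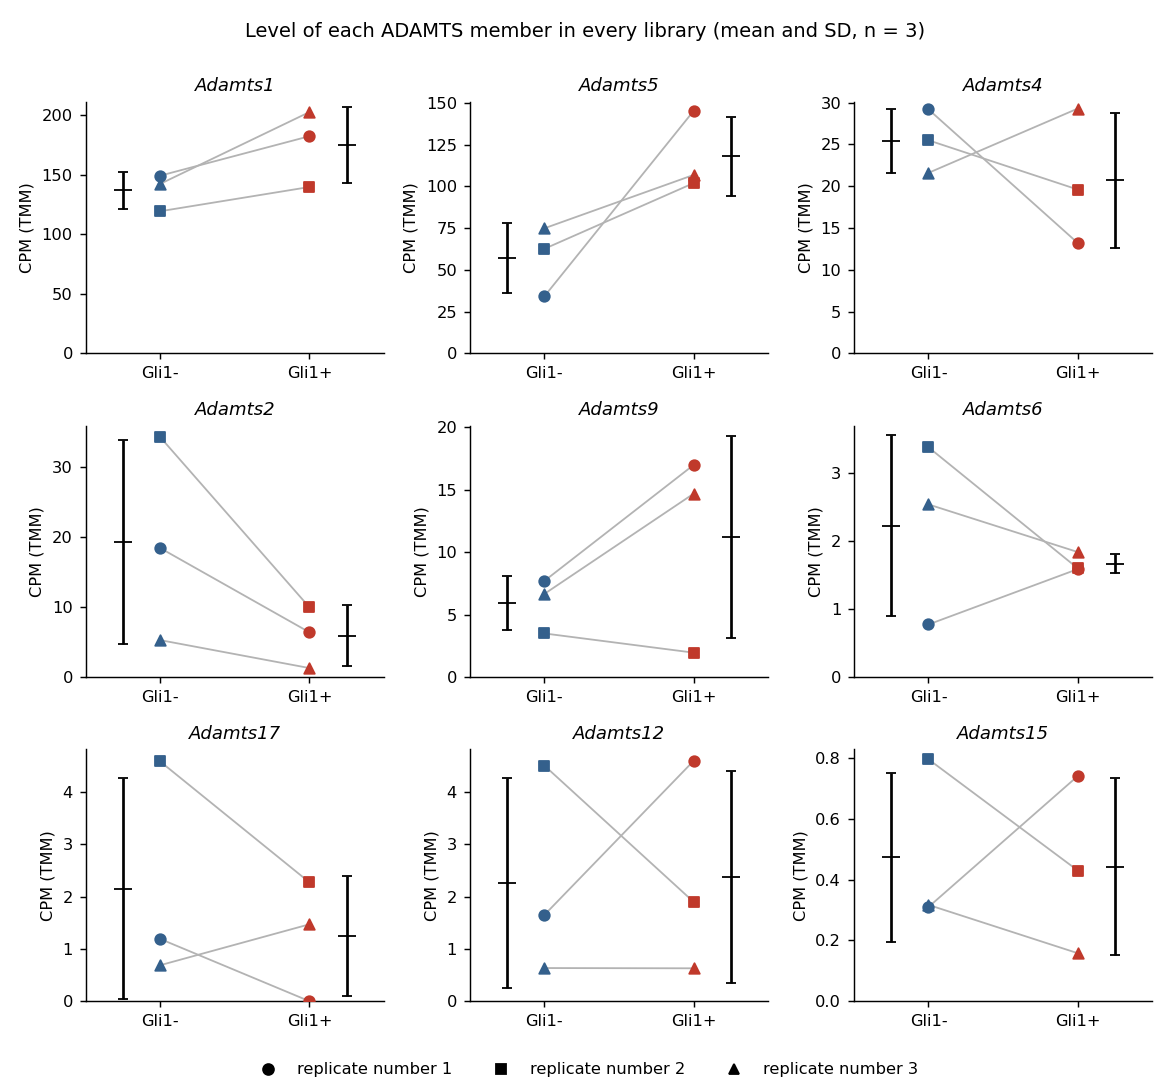
CPM of each of the 9 ADAMTS members by library, on linear axes, 1 panel per gene. Points are libraries, lines join the Gli1+ and Gli1- libraries of the same number, and bars show the mean and SD of 3 libraries; the populations are clear of each other for *Adamts5* alone, while all 3 lines run the same way for *Adamts1*, *Adamts2* and *Adamts5*.

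Among the aggrecanases, *Adamts5* had the clearest separation. It encodes aggrecanase-2, the main aggrecan-cutting enzyme of mouse joint cartilage in disease. Its level was 145.3, 102.0 and 106.9 CPM in Gli1+ replicates 1, 2 and 3, from 2746, 1661 and 2035 counts. In Gli1- replicates 1, 2 and 3 it was 34.1, 62.6 and 74.9 CPM, from 659, 944 and 1415 counts. All 3 Gli1+ libraries were above all 3 Gli1- libraries, with the lowest Gli1+ library 1.36-fold above the highest Gli1- library. The means were 118.1 ± 23.7 and 57.2 ± 20.9 CPM (SD, n = 3 each). *Adamts5* was the only member of the 8 tested whose libraries did not overlap between populations, against 8.49% of all genes tested, 4.04% with the Gli1+ libraries above and 4.45% with them below. With 3 libraries against 3, the 2-sided exact permutation test gave p = 0.1 for *Adamts5*, the smallest it can give. The log2FC was 1.05 (SE 0.43) with an unadjusted p-value of 0.0403 and an adjusted p-value of 0.9999 by edgeR.

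The size of the *Adamts5* difference rested in part on the libraries numbered 1. Within pairs, *Adamts5* was 4.26-fold higher in Gli1+ than in Gli1- cells for number 1, 1.63-fold for number 2 and 1.43-fold for number 3. The direction was the same in all 3 pairs, and the pair of number 1 stood out. Without Gli1- replicate 1, the library with the neutrophil markers, the log2FC of *Adamts5* was 0.77, and without Gli1+ replicate 1 it was 0.85, with unadjusted p-values by edgeR of 0.149 and 0.0884. With the replicate block the log2FC was 1.09 (SE 0.39), with an adjusted p-value by edgeR of 0.545 and by DESeq2 of 0.185. With both libraries of number 1 left out, it was 0.60 in both tools, below the fold threshold, with adjusted p-values of 0.028 by edgeR and 0.0968 by DESeq2. The part of the neutrophil RNA in this result was not tested beyond these values.

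*Adamts1*, the most abundant member, encodes a protease that cuts aggrecan and versican. It was at 182.5, 139.8 and 202.8 CPM in Gli1+ replicates 1, 2 and 3, and at 149.3, 119.4 and 142.4 CPM in Gli1- replicates 1, 2 and 3. Each Gli1+ library was above the Gli1- library of its number, by 0.29, 0.23 and 0.51 on the log2 scale, but the populations overlapped. The means of *Adamts1* were 175.0 ± 32.2 and 137.0 ± 15.6 CPM (SD, n = 3 each), with a log2FC of 0.35 (SE 0.37, unadjusted p = 0.371 by edgeR).

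*Adamts1* and *Adamts5*, neighbours on chromosome 16, were also set against each other. Per length, *Adamts5* was at 0.391, 0.358 and 0.259 of the level of *Adamts1* in Gli1+ replicates 1, 2 and 3 and at 0.112, 0.258 and 0.258 in Gli1- replicates 1, 2 and 3. The ratio in Gli1+ replicate 3 was hardly above those in Gli1- replicates 2 and 3, so the separation rested on the other libraries. The ratio of *Adamts5* to *Adamts4* per length was 4.90, 2.32 and 1.63 in Gli1+ and 0.520, 1.10 and 1.54 in Gli1- libraries. The ratios of *Adamts5* to *Acan*, *Vcan* and *Timp3*, the genes of 2 substrates and an inhibitor, overlapped between the populations. These ratios were chosen after the values of the genes had been seen, and no test is given for them.

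*Adamts4*, the gene of aggrecanase-1, was at 13.2, 19.6 and 29.3 CPM in Gli1+ replicates 1, 2 and 3, and at 29.2, 25.5 and 21.6 CPM in Gli1- replicates 1, 2 and 3. The populations overlapped through Gli1+ replicate 3, while Gli1+ replicates 1 and 2 lay below every Gli1- library. The log2FC of *Adamts4* was -0.30 (SE 0.44, unadjusted p = 0.515 by edgeR), and the pairs went different ways, at -1.14, -0.38 and 0.43 on the log2 scale for numbers 1, 2 and 3.

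*Adamts9*, whose product cuts versican and aggrecan, was at 17.0, 1.97 and 14.7 CPM in Gli1+ replicates 1, 2 and 3 and at 7.71, 3.51 and 6.67 CPM in Gli1- replicates 1, 2 and 3. It was above its Gli1- partner in pairs 1 and 3 and below it in pair 2, and Gli1+ replicate 2 held the lowest value of all. The log2FC of *Adamts9* was 0.91 (SE 0.78, unadjusted p = 0.278 by edgeR), and with the block it was 0.53 (SE 0.54).

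*Adamts15*, the gene of another aggrecanase, had 14, 7 and 3 counts in Gli1+ replicates 1, 2 and 3 and 6, 12 and 6 counts in Gli1- replicates 1, 2 and 3. At 0.443 ± 0.292 and 0.474 ± 0.278 CPM (SD, n = 3 each), it was too low to be tested and a difference was not detectable at this depth.

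*Adamts2* had the lowest log2FC of the members, and it is the member whose call depended on the pairing. It was at 6.40, 9.95 and 1.31 CPM in Gli1+ replicates 1, 2 and 3, from 121, 162 and 25 counts. In Gli1- replicates 1, 2 and 3 it was at 18.4, 34.2 and 5.29 CPM, from 356, 515 and 100 counts. The populations overlapped because Gli1- replicate 3 lay below Gli1+ replicates 1 and 2. Within every pair, however, the Gli1- library was higher, by 2.88-fold, 3.43-fold and 4.03-fold for numbers 1, 2 and 3. On the log2 scale the differences were -1.51, -1.77 and -1.92, with an SD of 0.21 (n = 3 pairs). The fold was thus alike in the 3 pairs, while the level ranged from 1.31 to 9.95 CPM in Gli1+ and from 5.29 to 34.2 CPM in Gli1- libraries. The means were 5.89 ± 4.34 CPM for Gli1+ and 19.3 ± 14.5 CPM for Gli1- (SD, n = 3 each).

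Without the block, the log2FC of *Adamts2* was -1.71 (SE 0.87, unadjusted p = 0.0855 and adjusted p = 0.9999 by edgeR), and the exact permutation test over libraries gave p = 0.3. With the block, the log2FC was -1.76 (SE 0.33). The adjusted p-value for *Adamts2* was then 0.35 by edgeR, 0.207 by limma-voom and 0.00295 by DESeq2, so that DESeq2 alone called it with all 6 libraries. The direction held in each fit that left out 1 library, from -2.34 without Gli1+ replicate 2 to -1.05 without Gli1- replicate 2.

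**Figure D3:**
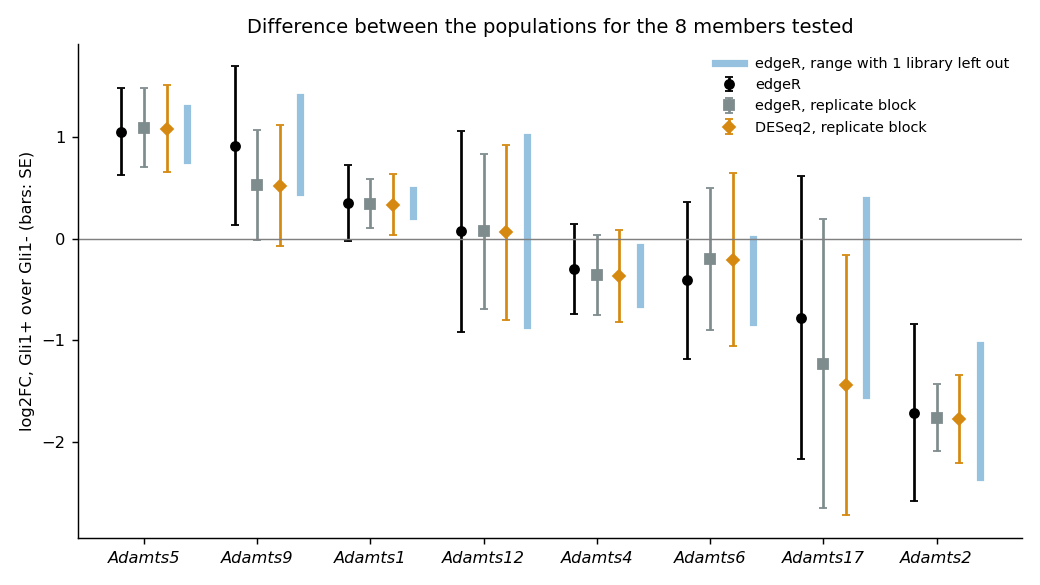
The log2FC of Gli1+ over Gli1- cells for the 8 tested members, with SE, by edgeR, edgeR with the replicate block and DESeq2 with the replicate block. Pale bars give the range over the 6 fits that each leave out 1 library. In the fits with all 6 libraries, *Adamts2* at -1.71 to -1.77 and *Adamts5* at 1.05 to 1.09 lie beyond 1 in size. So do the block fits of *Adamts17*, which have an SE over 1. With 1 library left out, *Adamts5* goes down to 0.77, *Adamts9* up to 1.39 and *Adamts17* down to -1.54.

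Markers of fibroblasts and perichondrium, the fibrous sheath of cartilage, had nearly the same order of libraries as *Adamts2*. The 12 markers summed to 1002.9, 1311.6 and 124.4 CPM in Gli1+ replicates 1, 2 and 3 and to 1174.3, 4735.4 and 560.1 CPM in Gli1- replicates 1, 2 and 3. In both populations replicate 2 was highest and replicate 3 lowest, the same order as for *Adamts2*, and the sum was higher in the Gli1- library of every pair. Between populations the order differed in 1 place. Gli1+ replicate 2 had a higher marker sum than Gli1- replicate 1 but less *Adamts2* (9.95 against 18.4 CPM). In pair 1 alone, the sums differed by a smaller fold than *Adamts2* did. Of the 12 markers, 3 were at 0 in Gli1+ replicate 1, the library with only 15000 genes with a count. In that library 8 of 8 erythroid, 7 of 10 skeletal muscle and 5 of 8 endothelial markers were at 0 too. So were 5 of 10 macrophage, 4 of 10 neutrophil and 1 of 14 chondrocyte markers, but 0 of 12 dissociation stress genes. Of the 11 markers tested in the fibroblast and perichondrium list, 1 was lower at an unadjusted p-value under 0.05 by edgeR. Of all genes tested, 2.04% were lower at that level. The median log2FC of the 11 markers was -1.29, beside 0.001 for all genes. As a ratio per length to *Col3a1*, a fibrillar collagen of that list and a substrate of the *Adamts2* product, *Adamts2* was at 0.0401, 0.0404 and 0.0613 in Gli1+ and 0.0645, 0.0515 and 0.0743 in Gli1- libraries. The Gli1- value was still the higher in every pair, but the populations overlapped. The part of fibroblasts in the *Adamts2* difference was not tested beyond these values.

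**Figure D4:**
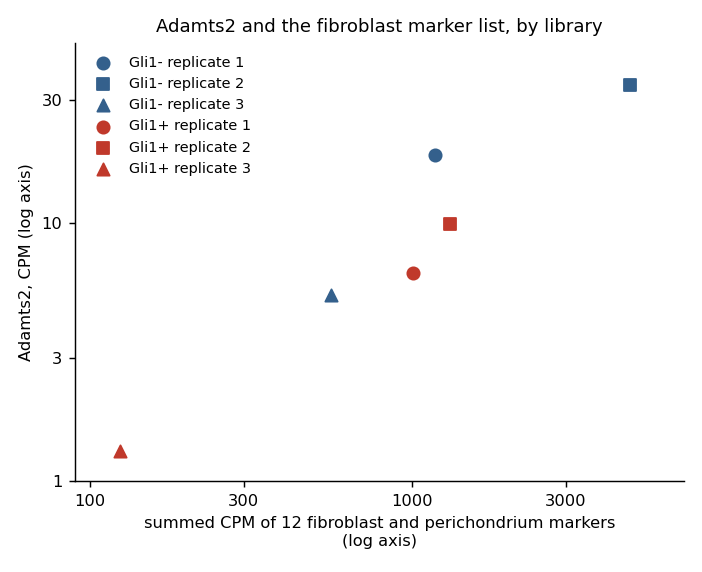
*Adamts2* in CPM against the summed CPM of 12 fibroblast and perichondrium markers, both on log axes. Each point is 1 of the 6 libraries, with the colour giving the population and the shape the replicate number; the library with the lowest marker sum (124.4 CPM) also has the lowest *Adamts2* (1.31 CPM), and the library with the highest sum (4735.4 CPM) has the highest (34.2 CPM).

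The 250 bases before the annotated start of *Adamts2* are shown because it is the member that DESeq2 called with the block. They are from RefSeq (GRCm38.p6, chr11:50601835-50602084, plus strand), 5′ to 3′, with GC boxes (GGGCGG on either strand) in capitals.
Adamts2: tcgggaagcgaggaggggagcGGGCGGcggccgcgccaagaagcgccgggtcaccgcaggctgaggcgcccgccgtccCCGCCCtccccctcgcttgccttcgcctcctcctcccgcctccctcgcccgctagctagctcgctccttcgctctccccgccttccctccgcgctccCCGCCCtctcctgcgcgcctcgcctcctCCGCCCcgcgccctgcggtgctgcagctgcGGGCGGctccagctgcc
This window held 5 GC boxes and was 78.0% G and C, above 97.9% of the 32851 promoter windows of that table, whose median was 52.4%. A GC box was found in 32.7% of all windows, 3 times in that of *Adamts1* and 1 time in that of *Adamts9*. None of the windows of the 5 members present in the table (*Adamts1*, *Adamts2*, *Adamts9*, *Adamts12* and *Adamts17*) held the GLI motif GACCACCCA on either strand, which was found in 0.225% of all windows. The letters TGTGGT (RUNX) and TGANTCA (AP-1) were in none of the 5 either, and in 14.0% and 6.75% of all windows. The letters TATAAA were found in the window of *Adamts1* and in 12.4% of all windows. Windows for *Adamts4*, *Adamts5*, *Adamts6* and *Adamts15* were not analysed here.

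The remaining members were low and scattered. *Adamts6* was at 1.59, 1.60 and 1.84 CPM in Gli1+ replicates 1, 2 and 3, within the Gli1- values of 0.776, 3.38 and 2.54 CPM, with a log2FC of -0.41 (SE 0.77). *Adamts12* was at 4.60, 1.90 and 0.630 CPM in Gli1+ and 1.65, 4.51 and 0.635 CPM in Gli1- libraries, with a log2FC of 0.07 (SE 0.99). *Adamts17* was at 0, 2.27 and 1.47 CPM in Gli1+ and 1.19, 4.58 and 0.688 CPM in Gli1- libraries, with a log2FC of -0.78 (SE 1.39). For all of them the populations overlapped and the pairs differed in sign. The count of 0 for *Adamts17* in Gli1+ replicate 1 allows a level of up to 0.159 CPM by counting error alone. These 3 genes had only 0 to 87 counts per library, and no difference between the populations was detected with 3 libraries of each.

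The wider ADAMTS system was read from 4 lists with 43 genes in all, of which 36 were tested. None of the 36 was called by edgeR without the block, beside 0.0% of all genes, with 2 higher and 3 lower at an unadjusted p-value under 0.05 (1.43% and 2.04% of all genes). DESeq2 with the block called 7 of the 34 that had an adjusted p-value, 1 higher and 6 lower in Gli1+ cells, beside 3.27% of all genes called in either direction and 2.39% called lower. With the same block, edgeR and limma-voom each called 0 of the 36. For the 7 genes that DESeq2 called, the adjusted p-values with the block were 0.35 to 0.448 by edgeR and 0.17 to 0.265 by limma-voom. The median log2FC of the 36 was -0.38, beside 0.001 for all genes, with 12 above 0 and 24 below.

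Among 10 other ADAMTS proteases, 5 were tested, with a median log2FC of -1.27 and 2 lower at an unadjusted p-value under 0.05. *Adamts3*, like *Adamts2* a procollagen N-proteinase, was at 9.21, 8.29 and 4.04 CPM in Gli1+ replicates 1, 2 and 3 and at 16.7, 36.7 and 34.1 CPM in Gli1- replicates 1, 2 and 3. All Gli1+ libraries were below all Gli1- libraries. The log2FC of *Adamts3* was -2.02 (SE 0.53, unadjusted p = 0.00506 and adjusted p = 0.9999 by edgeR), and DESeq2 with the block gave an adjusted p-value of 0.00755. *Adamts10*, the closest relative of *Adamts6* and a gene linked to fibrillin, was at 4.23, 25.9 and 16.4 CPM in Gli1+ and 28.1, 60.4 and 61.7 CPM in Gli1- libraries. They did not overlap either, and the log2FC of *Adamts10* was -1.69 (SE 0.67, unadjusted p = 0.0357 and adjusted p = 0.9999 by edgeR), with an adjusted p-value of 0.000667 by DESeq2 with the block. *Adamts7*, the closest relative of *Adamts12*, had a log2FC of 0.21 (SE 0.60).

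The procollagen N-proteinases as a class are *Adamts2*, *Adamts3* and *Adamts14*. *Adamts14*, chosen after its values were seen, had a log2FC of 0.33 (SE 0.66), and it was at 2.43, 3.56 and 2.78 CPM in Gli1+ and 2.43, 3.25 and 1.32 CPM in Gli1- libraries. The 3 genes summed to 2.85, 3.28 and 1.42 CPM per kb in Gli1+ and 5.52, 11.0 and 7.09 CPM per kb in Gli1- libraries. Every Gli1- sum was above every Gli1+ sum. For *Adamts1*, *Adamts4*, *Adamts5*, *Adamts9* and *Adamts15*, the genes of proteases that cut aggrecan or versican, the sums were 51.8, 40.1 and 55.2 CPM per kb in Gli1+ and 37.9, 33.9 and 38.8 CPM per kb in Gli1- libraries. The sums of the 2 classes thus lay on opposite sides in the 2 populations, but not every gene followed the sum of its class. *Adamts1* and *Adamts5* made up most of the second sum. *Adamts1* overlapped between the populations, and *Adamts4* had a log2FC of -0.30 (SE 0.44). The sums are a description, since the genes of each class were grouped with their values known.

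ADAMTS-like proteins share the ancillary domains of the family and lack the protease. Of 7 genes, 6 were tested, with a median log2FC of -0.69. *Adamtsl3* was at 4.55, 3.13 and 1.47 CPM in Gli1+ and 12.4, 11.7 and 16.1 CPM in Gli1- libraries, with a log2FC of -2.13 (SE 0.58, unadjusted p = 0.00605 and adjusted p = 0.9999 by edgeR, and adjusted p = 0.00755 by DESeq2 with the block). *Adamtsl1* went the other way, at 6.67, 1.11 and 1.89 CPM in Gli1+ and 0.310, 0.729 and 0.370 CPM in Gli1- libraries. Its log2FC was 2.77 (SE 0.96, unadjusted p = 0.0202 by edgeR), with an adjusted p-value of 0.223 by DESeq2 with the block, and the counts of *Adamtsl1* in Gli1- libraries were only 6, 11 and 7. *Thsd4*, also known as *Adamtsl6*, was at 8.20, 8.90 and 10.8 CPM in Gli1+ and 12.7, 19.2 and 19.4 CPM in Gli1- libraries, which did not overlap, with a log2FC of -0.88 (SE 0.44). *Adamtsl4* had a log2FC of -0.51 (SE 0.53).

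**Figure D5:**
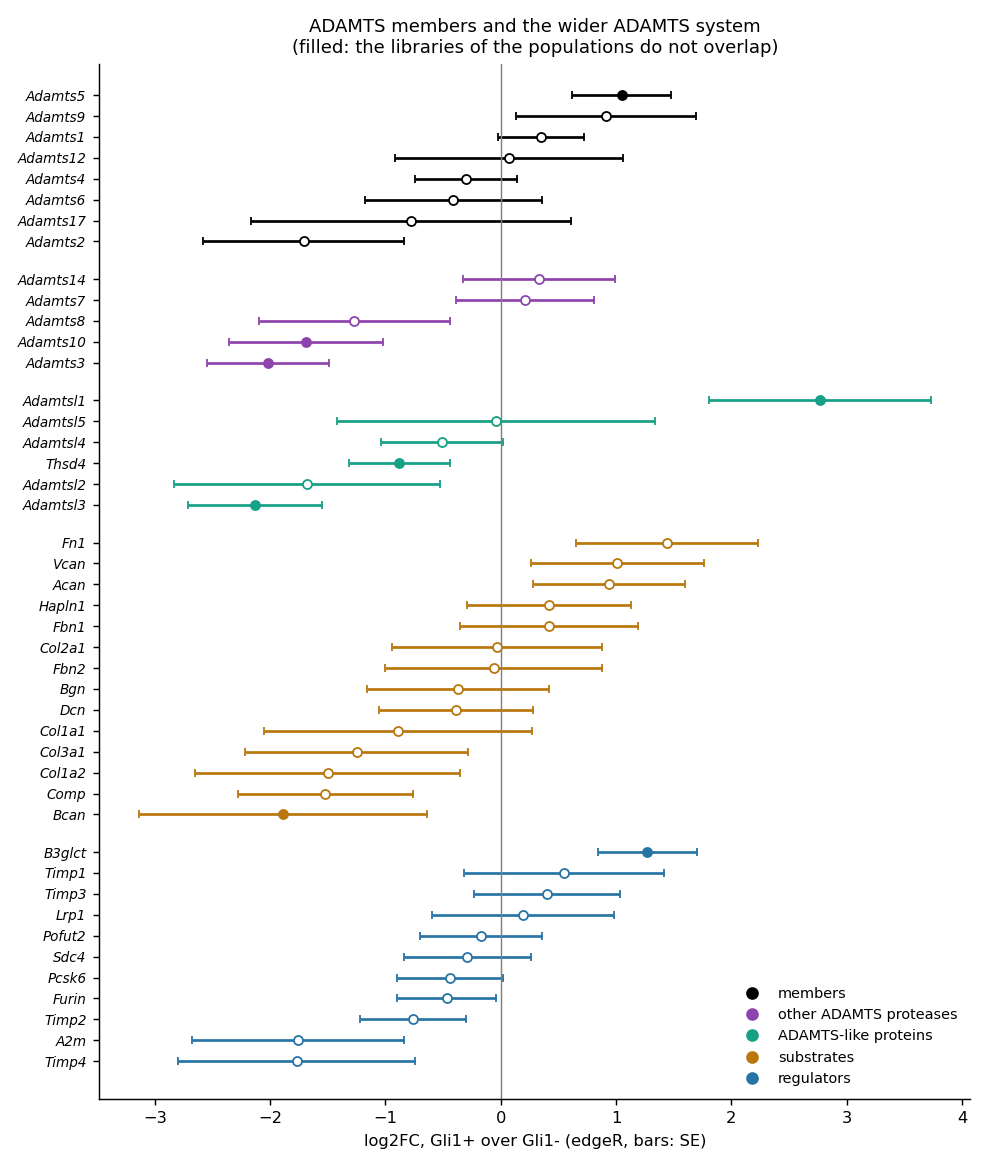
The log2FC of Gli1+ over Gli1- cells with SE, by edgeR without the block, for the 8 tested members and the 36 tested genes of 4 lists of the ADAMTS system. Each row is 1 gene, coloured by list, and a filled point marks a gene whose libraries do not overlap between the populations; among the proteases *Adamts5* is filled on the Gli1+ side and *Adamts3* and *Adamts10* on the Gli1- side.

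Of 15 substrates, 14 were tested, with a median log2FC of -0.21 and none at an unadjusted p-value under 0.05. *Comp*, the substrate of the *Adamts7* and *Adamts12* products, was at 637.2, 1548.3 and 482.8 CPM in Gli1+ and 1613.6, 4952.0 and 1089.8 CPM in Gli1- libraries. The Gli1+ library was the lower of each of the 3 pairs while the populations overlapped, with a log2FC of -1.52 (SE 0.76), and DESeq2 with the block called it at an adjusted p-value of 0.000367, against 0.35 by edgeR and 0.17 by limma-voom with the block. *Fn1*, the gene of fibronectin, had a log2FC of 1.44 (SE 0.79) and was called higher by DESeq2 with the block at an adjusted p-value of 0.0389, against 0.448 by edgeR and 0.265 by limma-voom. *Col2a1*, the gene of the main cartilage collagen, had a log2FC of -0.03 (SE 0.91). *Col3a1*, chosen after its values were seen, was the third substrate called by DESeq2 with the block, with a log2FC there of -1.34 and an adjusted p-value of 0.00608, against 0.381 by edgeR and 0.214 by limma-voom.

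All 11 regulators were tested, with a median log2FC of -0.29. *Timp3*, the gene of the main inhibitor of the aggrecanases, was at 783.6, 2280.6 and 989.0 CPM in Gli1+ and 532.8, 1604.2 and 944.6 CPM in Gli1- libraries, which overlapped, with a log2FC of 0.40 (SE 0.63). *Timp1* had a log2FC of 0.55 (SE 0.87) and *Sdc4*, the gene of a syndecan that binds ADAMTS5, of -0.29 (SE 0.55). *B3glct* encodes a glucosyltransferase that adds a sugar to thrombospondin repeats of ADAMTS proteins. It was at 17.4, 16.5 and 19.2 CPM in Gli1+ and 6.46, 6.70 and 8.89 CPM in Gli1- libraries, with every Gli1+ library at least 1.86-fold above every Gli1- library. The log2FC of *B3glct* was 1.27 (SE 0.43, unadjusted p = 0.018 and adjusted p = 0.9999 by edgeR), and DESeq2 with the block gave an adjusted p-value of 0.0576, which missed the threshold. *Timp4*, chosen after its values were seen, was the regulator that DESeq2 with the block called, lower in Gli1+ cells with an adjusted p-value of 0.0484, against 0.402 by edgeR and 0.265 by limma-voom.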

How the data were processed

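RNA-seq of sorted Gli1+ and Gli1- cells (3 libraries each, termed biological replicates in the methods) was deposited by the authors as 1 table of raw read counts per gene, without normalization or pooling, beside the gene lengths used here. The submitters' processing notes name HISAT2 2.0.5, featureCounts 1.5.0-p3 and mm10, and the annotation release and the use of strand are not given in the sources used here, so counts may hold reads of overlapping genes, not all of which are reported here. Every library had its own column, with 0 columns of per-sample values left unused. Poly(A) RNA was sequenced, and totals were 17114101 to 18602482 counts per library. Intervals and floors (3 counts) cover counting error only, and p-values measure the spread between these libraries.

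Genes were kept by filterByExpr (minimum count of 10), which left 14801, scaled by TMM and tested with edgeR 4.0.16 (quasi-likelihood test, R 4.3.3). Adjustment (Benjamini-Hochberg) ran over the whole set of tested genes, and genes were called at |log2FC| over 1 and adjusted p under 0.05. Single genes were also compared with a 2-sided exact permutation test over libraries. Alternatives were RLE, upper quartile and library size scaling, other filters, protein-coding genes alone, DESeq2 1.42.0, limma-voom (limma 3.58.1), a replicate block, and libraries left out. The scripts were tested on simulated data. Sequences came from GENCODE M21 transcripts and RefSeq promoter windows, and figures from matplotlib 3.10.9 in Python 3.11.15.

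Both populations were sorted from the same mice according to the paper, and the library titles carry a number from 1 to 3. After the mean of its population was subtracted from each library, libraries with the same number correlated over 14801 genes at 0.223, 0.720 and 0.471 (numbers 1, 2 and 3). As each value was over 0.1, the number was treated as a pairing, although neither the labels nor the paper says that a number marks a mouse. Genes are not independent replicates. Gli1+ replicate 1 correlated more with Gli1- replicate 3 (0.274) than with its own number. Gli1+ replicate 3 with Gli1- replicate 1 was over 0.1 too (0.107), so that limit was not passed by like numbers alone. The remaining pairs of unlike number were at -0.616 to -0.318. The main test has no block, since the methods state none.

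The members and lists were chosen with earlier results of these data known. The text names all 9 members, *Gli1*, and of each other ADAMTS list at most the 3 tested genes highest per length plus each gene with an unadjusted p under 0.05 by edgeR. The marker lists (chondrocyte, fibroblast and perichondrium, neutrophil, macrophage, endothelial, erythroid, skeletal muscle, dissociation stress) are given as sums or counts of genes, naming no more than 3 genes each by their mean level. Other genes are said to be chosen after their values were seen.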

Additional observations from a re-analysis of the deposited data

How the results depend on the processing

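With the replicate block, edgeR called 0 members and 0 of 14801 genes, as without it. DESeq2 with the replicate block called 1 member (*Adamts2*), 7 other ADAMTS system genes and 428 genes in all. With both libraries of number 1 left out, which leaves 1 residual degree of freedom, edgeR with the block called 1 member (*Adamts2*, log2FC -1.87), 12 other system genes and 1201 genes, and DESeq2 with the block called 1 member (*Adamts2*, -1.89), 10 other system genes and 781 genes. Without the low-count filter edgeR called 267 genes, and DESeq2 without the block called 30, with 0 members in both. The other scalings and filters, limma-voom with and without the block and all fits that left out 1 library (range 0 to 0) called 0 genes. The count of members at an unadjusted p under 0.05, an alternative chosen after seeing the data, was 1 in the main test and 0 to 3 over the others.

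The sign of *Adamts4* changed with both libraries of number 1 left out (log2FC 0.03 by edgeR and 0.02 by DESeq2, with the block). That of *Adamts12* changed without Gli1+ replicate 1 (-0.85), Gli1- replicate 1 (-0.12) or Gli1- replicate 3 (-0.38), and with both libraries of number 1 left out (-0.76 by edgeR and -0.70 by DESeq2). That of *Adamts17* changed without Gli1- replicate 2 (0.38), while the fits that left out another library gave values down to -1.54, without Gli1+ replicate 2, and limma-voom gave -1.80. The cause was not tested. *Adamts1*, *Adamts2*, *Adamts5* and *Adamts9* kept their direction in every fit run. *Adamts9* ranged from 0.21, by DESeq2 with the block and both libraries of number 1 left out, to 1.39 without Gli1+ replicate 2. *Adamts6* did not change sign either, but it came to -0.0 without Gli1- replicate 2. No scaling moved the median log2FC of all genes by over 0.1. Without Gli1+ replicate 1, the median of the members was -0.15. The order of the mean levels per length was the same with each library left out in turn and without division by length for *Adamts1*, *Adamts5*, *Adamts4*, *Adamts2*, *Adamts9* and *Adamts15*, while *Adamts6*, *Adamts17* and *Adamts12* exchanged ranks 6 to 8.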
